A study of Homo sapiens with 4 samples.

Results

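The genes described here make cholesterol and fatty acids. They are the enzymes of the mevalonate pathway, the enzymes that turn its product into squalene and then into cholesterol, the proteins that sense and handle sterols in the cell, the enzymes of fatty acid synthesis and desaturation, and the sterol exporters. The list held 33 genes, and a listed gene was kept when its value was at least 1 TPM in at least 2 of the 4 samples. TPM, a length-corrected unit that sums to a fixed total in each sample, is the share of a sample's RNA signal that a gene takes, so levels of different genes can be set side by side. Of the 33 genes, 29 had a row in the expression table and all 29 were kept, among 16817 of 18567 genes of the whole table kept by the same filter. The lowest value of any of the 29 was 6.82 TPM, in HMGCS1, so none lay near the filter. HSD17B7, ELOVL6, ABCA1 and ABCG1 were not analysed here.

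RNA was sequenced from Kasumi-1, an established human acute myeloid leukemia (AML) cell line, to find genes that change when ANP32B, a nuclear protein with an acidic tail, is knocked down. NC was the control group, with 2 samples, and sh-ANP32B was the group with a short hairpin RNA against ANP32B, also with 2 samples. The sample labels give NC no hairpin, while a control hairpin appears in the methods of the study, and which of these NC carried was not settled here. The study delivered hairpins with a lentivirus and selected cells with puromycin, and the labels do not say which hairpin each sh-ANP32B sample carried or whether the replicates were separate cultures, so the p-values measure only the spread between these samples.

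Cells make cholesterol from acetyl-CoA through mevalonate and squalene. When membranes of the endoplasmic reticulum are low in sterol, the carrier SCAP moves the membrane-bound factors SREBP-1 and SREBP-2 (genes SREBF1 and SREBF2) to the Golgi, where they are cut, and the freed part enters the nucleus and turns on genes of sterol and fatty acid synthesis. When sterol is plentiful, the INSIG proteins hold SCAP in place. NF-Y and Sp1, which bind CCAAT and GC boxes, are known partners of SREBP at promoters of this kind.

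Promoter sequences of RefSeq (GRCh38.p14) were found for 25 of the 29 genes, in 34 windows of 300 bases that run from 250 bases before a transcription start to 50 after it. The windows were searched on both strands for 4 motifs. The first was the sterol regulatory element, to which SREBP proteins bind, with the letters TCACNCCAC. The second was the E-box, a site of many helix-loop-helix proteins, spelled CACGTG. The next was the CCAAT box of NF-Y, which is read on the opposite strand as ATTGG. The last was the GC box, at which Sp1 binds, spelled GGGCGG. Matches were counted for each motif on its own, and none of the 4 contains another. A stretch was chosen for printing from SREBF2, the only gene of the group whose window held TCACNCCAC. Others came from 4 genes that rose in sh-ANP32B cells (MSMO1, STARD4, MVD and SCD). The last came from PMVK, which was not called and whose printed stretch held neither TCACNCCAC nor a CCAAT box. The stretches are examples only, since SREBF2, EBP and NSDHL, also not called, held CCAAT boxes before their starts. Each stretch is written 5′ to 3′ on the strand of its gene and ends before the annotated start of the gene in both RefSeq and GENCODE. Capitals mark matches to TCACNCCAC and CCAAT on either strand, and GC boxes are not marked. The stretches are chr22:41832855-41833104 (plus strand) for SREBF2, chr4:165327419-165327666 (plus) for MSMO1, chr5:111512591-111512785 (minus) for STARD4, chr16:88663162-88663341 (minus) for MVD, chr10:100346983-100347232 (plus) for SCD and chr1:154936720-154936969 (minus) for PMVK.
SREBF2: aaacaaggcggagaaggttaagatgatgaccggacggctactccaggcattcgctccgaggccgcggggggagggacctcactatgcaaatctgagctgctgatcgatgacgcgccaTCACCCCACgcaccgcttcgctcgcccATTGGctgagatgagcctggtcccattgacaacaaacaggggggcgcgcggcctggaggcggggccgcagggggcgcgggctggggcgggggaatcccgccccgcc
MSMO1: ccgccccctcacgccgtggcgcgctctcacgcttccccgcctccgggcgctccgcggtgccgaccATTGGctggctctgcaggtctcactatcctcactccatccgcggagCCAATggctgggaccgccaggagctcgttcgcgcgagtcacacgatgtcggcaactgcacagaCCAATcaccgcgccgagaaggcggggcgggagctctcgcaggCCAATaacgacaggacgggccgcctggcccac
STARD4: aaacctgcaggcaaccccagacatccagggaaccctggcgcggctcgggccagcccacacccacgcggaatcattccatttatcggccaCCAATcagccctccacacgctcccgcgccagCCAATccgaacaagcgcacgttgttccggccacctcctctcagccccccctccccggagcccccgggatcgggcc
MVD: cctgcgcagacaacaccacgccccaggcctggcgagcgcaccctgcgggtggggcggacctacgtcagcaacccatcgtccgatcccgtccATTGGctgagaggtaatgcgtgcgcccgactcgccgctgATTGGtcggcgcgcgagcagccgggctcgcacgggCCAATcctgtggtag
SCD: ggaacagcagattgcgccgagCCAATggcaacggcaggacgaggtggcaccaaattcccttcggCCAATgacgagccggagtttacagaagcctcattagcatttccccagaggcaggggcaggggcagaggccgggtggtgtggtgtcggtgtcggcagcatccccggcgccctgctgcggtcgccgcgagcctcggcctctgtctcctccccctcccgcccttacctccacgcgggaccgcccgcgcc
PMVK: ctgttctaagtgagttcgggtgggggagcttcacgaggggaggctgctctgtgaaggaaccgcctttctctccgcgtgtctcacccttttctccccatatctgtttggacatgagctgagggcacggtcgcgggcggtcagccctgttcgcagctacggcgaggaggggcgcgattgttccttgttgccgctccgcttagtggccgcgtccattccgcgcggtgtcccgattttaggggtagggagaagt

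The CCAAT box was the most frequent of the marked motifs. It was present in 70.6% of the 34 windows, against 34.7% of the windows of all genes tested and 34.6% of all 35116 promoters. By gene, 20 of 25 had a CCAAT box in at least 1 window, among them 10 of the 10 genes called higher in sh-ANP32B cells and 10 of the 15 not called. The GC box was present in 85.3% of the windows, against 65.6% for all genes tested and 45% of all promoters. It was in 23 of the 25 genes, 10 of the 10 called and 13 of the 15 not called. The E-box occurred in 5 of the 25 genes (INSIG1, LSS, SC5D, SCAP and ELOVL5), 2 of the 10 called and 3 of the 15 not called. Its share was 17.6% of the windows, against 9.8% for all genes tested and 7.26% of all promoters. TCACNCCAC was present in 1.05% of the windows of all genes tested and 1.13% of all promoters. Within the group, 0 of the 10 called genes held it. Of the 15 not called, 1 did, namely SREBF2, 133 bases before its start. Shares by gene were not computed for the whole table, and called and not called genes were not compared by a test. A match is a run of letters and not a measured binding site, and a missing match says only that these letters were not in the window.

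ANP32B itself was 384 and 392 TPM in NC against 51.8 and 41.2 TPM in sh-ANP32B. The groups did not overlap, and the log2 fold change was -3.04 (SE 0.150, adjusted p = 0.00516 by limma). Fold changes here are differences of mean log2(TPM + 1), sh-ANP32B minus NC, with their standard error (SE) from limma, a linear model fitted to all 16817 genes, and the Benjamini-Hochberg adjusted p over those genes. A gene was called when that p was under 0.05. The columns summed to between 997812 and 998314 TPM. TPM carries no sequencing depth, so the depth of the samples was unknown. Mitochondrial genes took 12.9% and 13.1% of TPM in NC and 11.4% and 8.43% in sh-ANP32B. Of the myeloid markers, RUNX1 lay between 121 and 143 TPM, CD33 between 58.5 and 70.1, RUNX1T1 between 15.6 and 31.2 and KIT between 1.55 and 3.41 TPM, while CD34 and MPO were not analysed here. Of the markers of other cells, CD3E, MS4A1, HBB, EPCAM, COL1A1 and ALB were not analysed here. HOXA9, a homeobox gene looked at after its values were seen and usually low in leukemias with the RUNX1 and RUNX1T1 fusion that Kasumi-1 carries, was at 150 to 194 TPM. POU4F1, a gene usually expressed in leukemias with that fusion and looked at in the same way, was at 16.1 to 22.9 TPM. Neither the low KIT values nor the HOXA9 values were followed up, and the identity of the line was not tested further.

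Sterol and fatty acid genes were higher in sh-ANP32B cells, or were not called, and no gene of the group was called lower. Of the 29 genes, 10 were called higher, namely MVK, MVD, IDI1, LSS, MSMO1, DHCR7, INSIG1, STARD4, SCD and FADS2, with ratios of mean TPM from 1.86 to 2.64. Over all genes tested, 2.14% were called higher and 1.18% lower. Under the median-of-ratios scaling, which removes the shift of the median gene, 9 of the 29 genes were called higher and the shares in the whole table were 1.40% higher and 1.69% lower. Both sh-ANP32B samples lay above both NC samples in 21 of the 29 genes, against 33.2% of all genes, and below both in 1 gene, ACLY, against 21.4%. The median log2 fold change was 0.50 over the 29 genes and 0.08 over all genes tested. The genes were chosen with earlier results of these data known, so these contrasts with the whole table only describe the list. The study called genes with DESeq2, at a p under 0.05 and a log2 fold change beyond 0.5 in either direction. With these cut-offs put on the unadjusted limma p and the fold changes used here, 14 genes were higher and 0 lower. The shares of the whole table were 12.1% and 6.55%, and these are not the calls of the study. No gene of the group was called lower by limma in any setting tried, and ACLY, the lowest of the group, had an unadjusted p of 0.315.

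The 29 genes together summed to 2674 and 2660 TPM in NC and to 4128 and 4287 TPM in sh-ANP32B. The sums of the 2 replicates of a group were close, although single genes differed between the sh-ANP32B replicates. The share of mitochondrial genes was lower in both sh-ANP32B samples. With those genes left out, 9 of the 29 genes were called higher, against 1.79% of all genes. The median log2 fold change was then 0.45 over the 29 genes and 0.04 over all genes. In bulk RNA, a change in the RNA of each cell and a change in the mix of cells cannot be told apart. The calls rest on how limma estimates the spread: without its abundance trend 0 of the 29 genes passed (0 of all genes, with 16 of the 29 and 22% of all genes at an unadjusted p under 0.05), and the adjusted p of the 10 genes then lay between 0.114 and 0.134. Without NC replicate 1, or without NC replicate 2, 6 of the 10 genes were called, and both times MVK, IDI1, SCD and FADS2 were not, while 1.45% and 1.27% of all genes were called higher. Without sh-ANP32B replicate 1 or 2, where the spread comes from the NC pair alone, 20 and 17 of the 29 genes were called higher, while the share of all genes called higher was 14.6% and 12.3%.

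**Figure D1:**
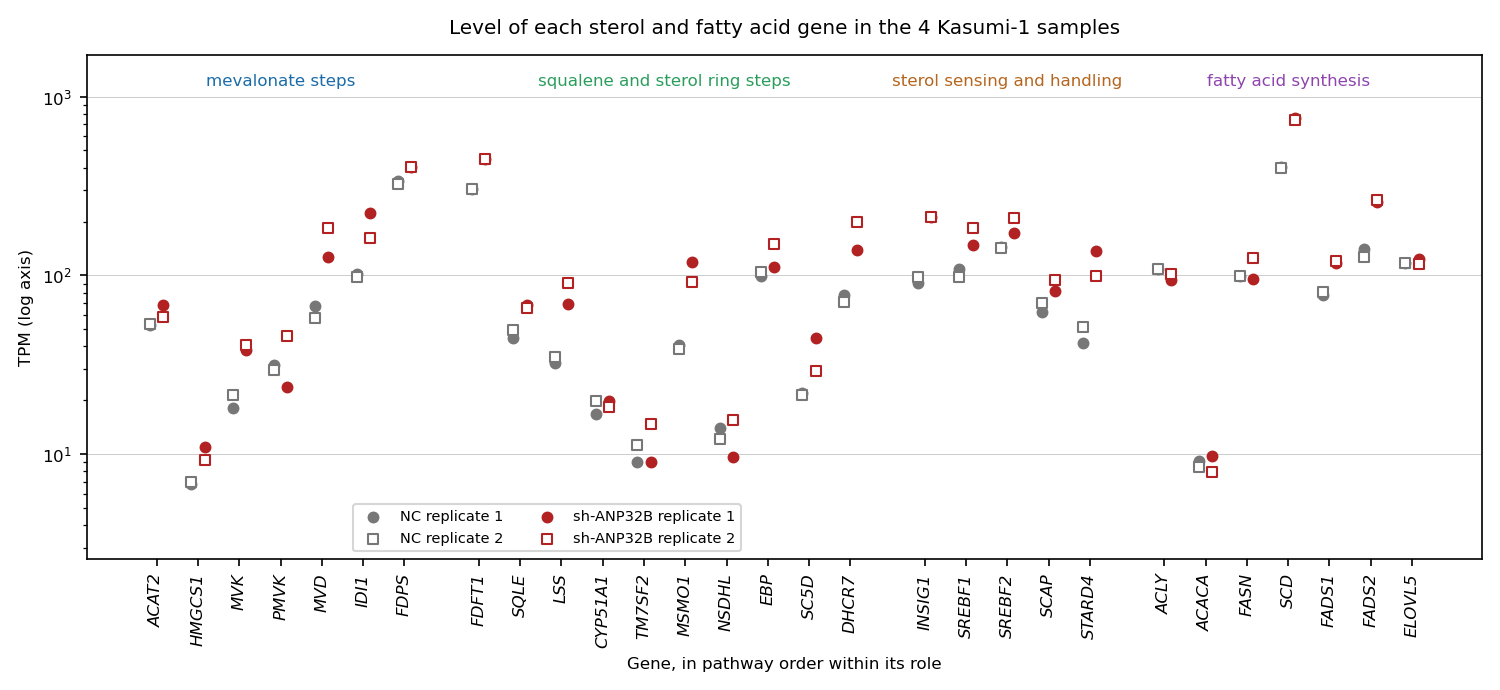
Level of each of the 29 genes in TPM (log axis) in each sample, with NC in grey and sh-ANP32B in red, replicate 1 as filled circles and replicate 2 as open squares. The sh-ANP32B samples lie above both NC samples in 21 genes, with the largest log2 fold changes in MSMO1, STARD4, MVD, LSS, DHCR7 and INSIG1, while PMVK, NSDHL, ACACA, FASN and ELOVL5 have 1 sh-ANP32B sample below both NC samples and 1 above both.

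In the mevalonate steps, 3 of 7 genes rose, against 2.14% of all genes called higher, and the median log2 fold change was 0.49. The 3 genes were MVK, MVD and IDI1. MVK, the kinase that phosphorylates mevalonate, was 18.2 and 21.5 TPM in NC against 38.3 and 40.8 TPM in sh-ANP32B, a log2 fold change of 0.97 (SE 0.164, adjusted p = 0.0429). MVD, the decarboxylase that forms isopentenyl diphosphate, was 67.2 and 57.5 TPM in NC against 126 and 183 TPM in sh-ANP32B (1.27, SE 0.202, adjusted p = 0.0392). IDI1, the isomerase of that product, was 102 and 98.1 TPM in NC against 223 and 161 TPM in sh-ANP32B (0.91, SE 0.177, adjusted p = 0.0482). For each of the 3 the lower sh-ANP32B sample stood at more than 1.5 times the higher NC sample. IDI1 was the least firm of the 10 calls, since its adjusted p was 0.0539 with a pseudocount of 0.1 TPM, 0.0576 under median-of-ratios scaling and 0.0603 with mitochondrial genes left out.

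The other 4 mevalonate genes were not called. HMGCS1, the synthase that makes HMG-CoA and the least abundant of the group, was 6.82 and 7.01 TPM in NC against 11.0 and 9.31 TPM in sh-ANP32B (0.49, adjusted p = 0.21). FDPS, which joins the isoprene units into farnesyl diphosphate, was 335 and 324 TPM in NC against 401 and 402 TPM in sh-ANP32B (0.28, adjusted p = 0.203). ACAT2, the thiolase at the entry of the pathway, was 52.5 and 53.3 TPM against 68.6 and 58.2 TPM (0.25, adjusted p = 0.352). In these 3 genes the groups did not overlap. FDPS has a pseudogene copy, FDPSP8, and HMGCS1 overlaps another locus on the opposite strand, so reads of these genes could have been shared. PMVK, the next kinase after MVK, was 31.4 and 29.4 TPM in NC against 23.6 and 46.0 TPM in sh-ANP32B, so the sh-ANP32B samples lay on both sides of NC, and its log2 fold change of 0.11 had a 95% confidence interval from -0.59 to 0.82. MVK and PMVK, which act one after the other, thus differed in their calls, but the difference between their fold changes was not tested.

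In the steps from farnesyl diphosphate through squalene to the sterol ring and its finishing, 3 of 10 genes rose. Over all genes, 2.14% were called higher. The median log2 fold change of the 10 genes was 0.52. MSMO1, an oxidase that acts in the removal of methyl groups from the sterol ring, had the largest fold change of the 29 genes. It was 40.6 and 38.7 TPM in NC against 118 and 92.0 TPM in sh-ANP32B (1.37, SE 0.163, adjusted p = 0.0261). LSS, the cyclase that closes the sterol ring, was 32.2 and 34.9 TPM in NC against 69.3 and 91.0 TPM in sh-ANP32B (1.22, SE 0.174, adjusted p = 0.0348). DHCR7, a late reductase on the way to cholesterol, was 77.2 and 70.6 TPM in NC against 138 and 198 TPM in sh-ANP32B (1.15, SE 0.190, adjusted p = 0.0408). The groups were apart in all 3 genes. The higher sh-ANP32B sample was replicate 1 for MSMO1 and replicate 2 for LSS and DHCR7.

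FDFT1 and SQLE, the enzymes that make squalene and oxidise it, came next. FDFT1 was 303 and 305 TPM in NC against 445 and 445 TPM in sh-ANP32B (0.55, 95% confidence interval 0.27 to 0.82, adjusted p = 0.0565). SQLE was 44.6 and 49.5 TPM against 68.1 and 65.7 TPM (0.50, adjusted p = 0.0988). Neither gene passed the threshold, although in both the replicates of a group were close and the groups did not overlap. SC5D, a desaturase of the late ring steps, was 22 and 21.4 TPM in NC against 44.8 and 29.0 TPM in sh-ANP32B (0.71, adjusted p = 0.124), with the sh-ANP32B replicates far apart. EBP, the isomerase before SC5D, was 99.2 and 105 TPM against 112 and 149 TPM (0.34, adjusted p = 0.272).

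The remaining ring enzymes overlapped between the groups. CYP51A1, the demethylase that acts first on the closed ring, was 16.7 and 19.8 TPM in NC against 19.9 and 18.4 TPM in sh-ANP32B (0.07, 95% confidence interval -0.35 to 0.49). CYP51A1, like EBP, shares exons with other annotated loci on its strand, so its level is less certain. TM7SF2, a sterol reductase, was 9.0 and 11.2 TPM in NC against 9.05 and 14.7 TPM in sh-ANP32B (0.19, 95% confidence interval -0.45 to 0.83). NSDHL, a dehydrogenase that works after MSMO1, was 14.0 and 12.1 TPM in NC against 9.65 and 15.5 TPM in sh-ANP32B (-0.08, 95% confidence interval -0.69 to 0.52). In the order of the reactions, genes whose interval held 0 stood between called genes: PMVK between MVK and MVD, CYP51A1 and TM7SF2 between LSS and MSMO1, and NSDHL and EBP between MSMO1 and DHCR7. The intervals are wide, and their upper bounds leave room for moderate changes. These bounds were 0.82 for PMVK, 0.49 for CYP51A1, 0.83 for TM7SF2, 0.52 for NSDHL and 0.74 for EBP. In EBP both sh-ANP32B samples lay above both NC samples.

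**Figure D2:**
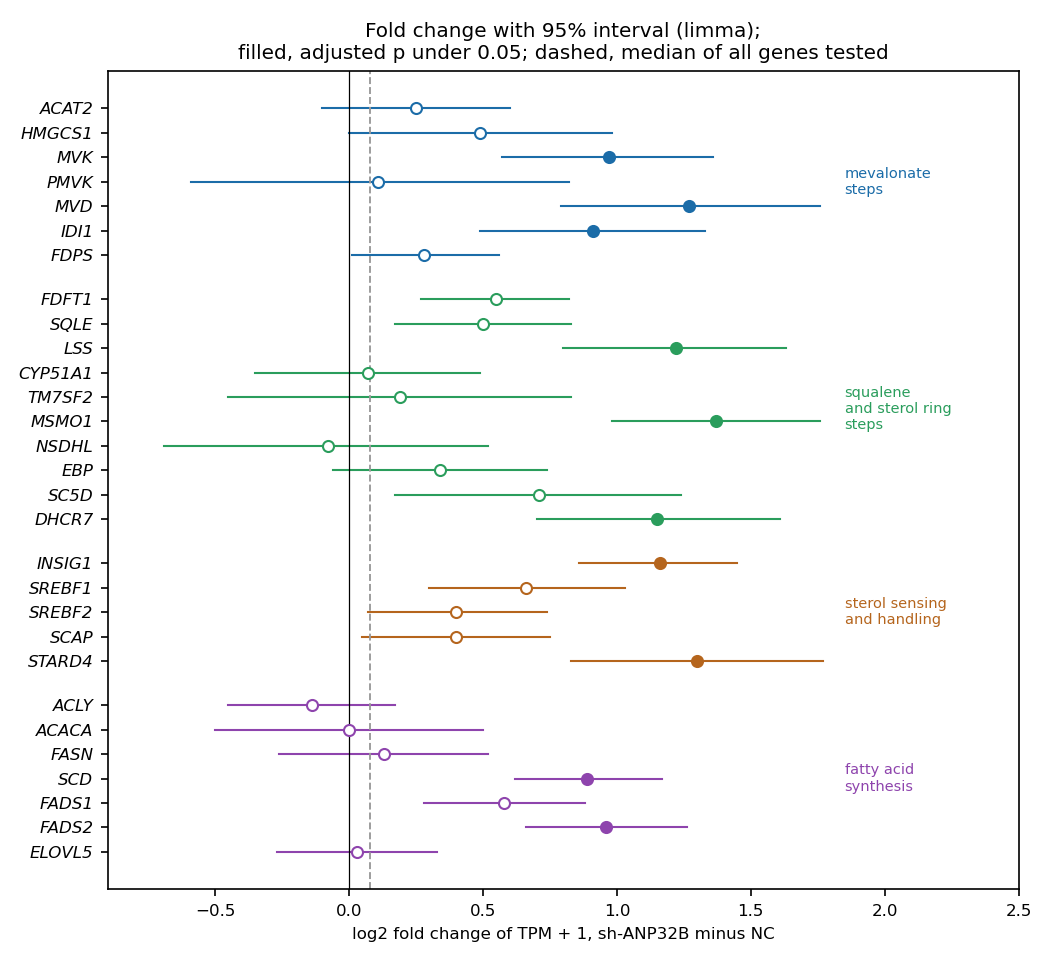
Log2 fold change of TPM + 1, sh-ANP32B minus NC, for each of the 29 genes with its 95% confidence interval, in 4 colours for the 4 roles, where filled points have an adjusted p under 0.05 and the dashed line is the median of all genes tested (0.08). The 10 filled points lie between 0.89 and 1.37, and the 3 points below 0 are ACLY, NSDHL and ACACA.

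All 5 genes of sterol sensing and handling were higher in both sh-ANP32B samples than in both NC samples, against 33.2% of all genes. Of the 5, 2 were called higher, against 2.14% of all genes, and the median log2 fold change was 0.66. INSIG1, which retains SCAP when sterol is plentiful and is itself a known SREBP target, was 90.8 and 97.9 TPM in NC against 212 and 211 TPM in sh-ANP32B (1.16, SE 0.124, adjusted p = 0.0258). Its sh-ANP32B replicates were almost equal, and its adjusted p was the smallest of the 29. STARD4, a carrier that moves cholesterol between membranes, was 41.9 and 51.6 TPM in NC against 136 and 98.9 TPM in sh-ANP32B (1.30, SE 0.196, adjusted p = 0.0359).

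The SREBP genes and their carrier were not called. SREBF1 was 109 and 98.3 TPM in NC against 148 and 183 TPM in sh-ANP32B (0.66, SE 0.152, adjusted p = 0.0658). SREBF2 was 144 and 142 TPM in NC against 172 and 208 TPM in sh-ANP32B (0.40, SE 0.140, adjusted p = 0.152). SCAP was 62.5 and 69.7 TPM in NC against 81.2 and 94.2 TPM in sh-ANP32B (0.40, SE 0.146, adjusted p = 0.167). In all 3 the sh-ANP32B samples were the higher ones and replicate 2 was above replicate 1. These values are of RNA, and neither the cut SREBP proteins nor sterol levels are part of these data.

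Within fatty acid synthesis 2 of 7 genes were called higher, against 2.14% of all genes, namely SCD and FADS2, both desaturases. The other 5 genes were not called. SCD, which puts a double bond into saturated fatty acids and was the most abundant of the 29 genes, was 403 and 400 TPM in NC against 758 and 738 TPM in sh-ANP32B (0.89, SE 0.115, adjusted p = 0.0304). SCD has a pseudogene copy, SCDP1, to which some of its reads could have gone. FADS2, the desaturase at the entry to polyunsaturated fatty acid synthesis, was 140 and 127 TPM in NC against 257 and 265 TPM in sh-ANP32B (0.96, SE 0.125, adjusted p = 0.0304). FADS1, a later desaturase of the same pathway, was 77.7 and 80.6 TPM in NC against 117 and 121 TPM in sh-ANP32B (0.58, SE 0.126, adjusted p = 0.059), close to the threshold and without overlap. FADS1 and FADS2 overlap on opposite strands of chromosome 11 in hg38 (61799627 to 61829318 on the minus strand and 61792980 to 61867354 on the plus strand), and no source used here says if reads were counted by strand, so the split of signal between them is uncertain.

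ACLY, which supplies acetyl-CoA from citrate, was 108 and 109 TPM in NC against 94 and 102 TPM in sh-ANP32B (-0.14, 95% confidence interval -0.45 to 0.17). ACACA, the carboxylase that makes malonyl-CoA, was 9.10 and 8.52 TPM in NC against 9.75 and 7.92 TPM in sh-ANP32B (0.00, 95% confidence interval -0.50 to 0.50). FASN, the synthase that builds palmitate, was 99.4 and 99.2 TPM in NC against 95.2 and 125 TPM in sh-ANP32B (0.13, 95% confidence interval -0.26 to 0.52). These intervals hold 0, and their upper bounds lie below the log2 fold changes of SCD and FADS2. The differences between genes were not tested. ELOVL5, an elongase of polyunsaturated fatty acids, was 117 and 117 TPM in NC against 123 and 116 TPM in sh-ANP32B (0.03, 95% confidence interval -0.27 to 0.33). The median log2 fold change of the 7 genes was 0.13, near the 0.08 of all genes tested, so as a list fatty acid synthesis lay closer to the rest of the table than the sterol genes did.

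The sh-ANP32B replicates differed from each other by more than the NC replicates did. The median absolute difference of log2(TPM + 1) between replicates was 0.08 in NC and 0.27 in sh-ANP32B over the 29 genes, and 0.15 and 0.30 over all genes tested. The difference between the sh-ANP32B replicates went with GC content, the share of G and C in the longest transcript. All 9 genes of the group with GC under 45% had the lower value in replicate 2, and 11 of the 12 with GC over 55% had the higher value in replicate 2. The same relation ran through the whole table, with a Spearman rho across genes of 0.577 for the sh-ANP32B pair and -0.206 for the NC pair. Genes of one table are not independent replicates, so no p is given.

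The 10 called genes came from both ends of the GC range, 4 with GC under 45% (among them STARD4 and MSMO1), 5 with GC over 55% (among them MVD and LSS) and SCD between. The median GC content was 49.6% for the 29 genes and 48.1% for all genes tested. After a correction that took the GC trend out of each sample, all 10 genes were called again with log2 fold changes between 0.76 and 1.33. A further 5, namely FDFT1, SQLE, SC5D, SREBF1 and FADS1, were called as well, while 7.53% of the table was called higher and 8.9% lower.

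**Figure D3:**
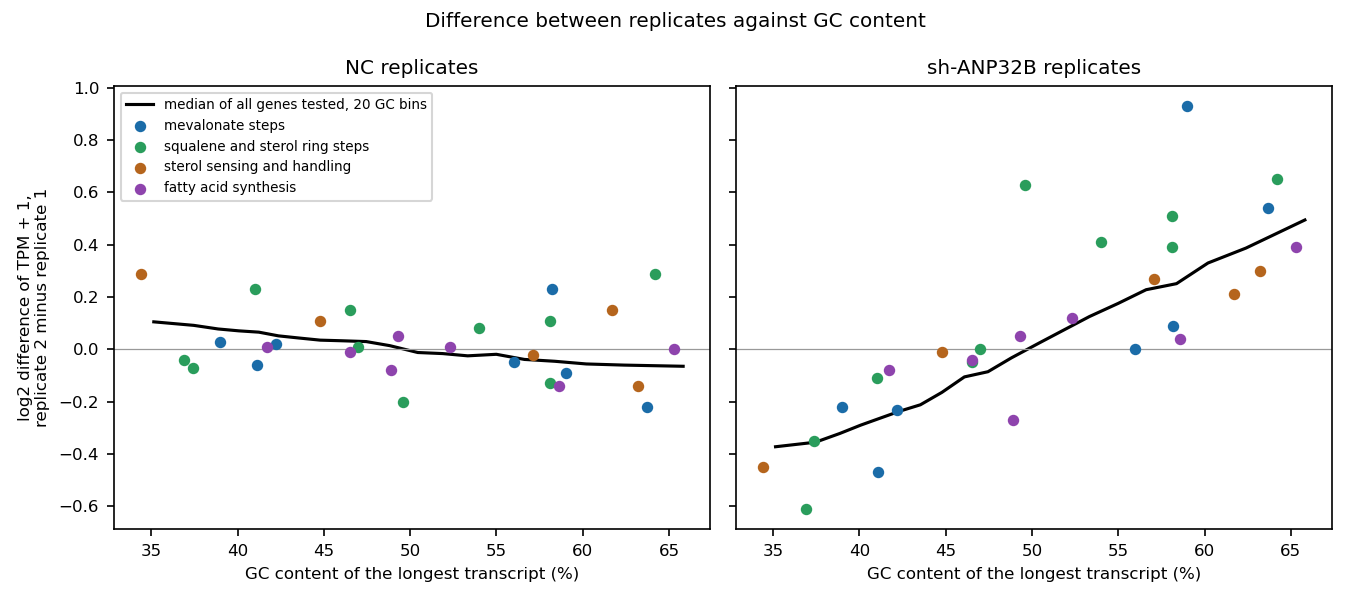
Difference of log2(TPM + 1) between replicate 2 and replicate 1 of NC (left) and of sh-ANP32B (right) against the GC content of the longest transcript in percent, where points are the 29 genes coloured by role and the line is the median of all genes tested in bins of GC content. The NC points stay between -0.22 and 0.29, while the sh-ANP32B points run from -0.61 to 0.93 and climb with GC content.

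Beyond the 29, 75 of 81 other genes of these pathways, grouped in 5 lists, were tested. Of these, 3 were called higher and 0 lower, against 2.14% and 1.18% of all genes tested. Their median log2 fold change was 0.13. Over all genes tested, 23.8% had an unadjusted p under 0.05 in either direction. This is the share to set beside the counts at an unadjusted p under 0.05 given for each list. In other sterol and isoprenoid synthesis 0 of 10 genes were called, 3 had an unadjusted p under 0.05 and the median was 0.07. Its largest differences were PDSS1, of ubiquinone synthesis, at -0.70 (adjusted p = 0.111) and DHDDS, of dolichol synthesis, at 0.56 (adjusted p = 0.0808). In SREBP processing and sterol sensing 0 of 11 genes were called, 2 had an unadjusted p under 0.05 and the median was 0.03, with ERLIN2 at 0.39 (adjusted p = 0.159) and RNF145 at 0.38 (adjusted p = 0.195) the largest.

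Of 20 other genes of fatty acid synthesis and activation, 2 rose (against 2.14% of all genes called higher) and the median was -0.09. An unadjusted p under 0.05 was found in 6 of the 20, against 23.8% of all genes. ACSS2, which makes acetyl-CoA from acetate, was 39.5 and 34.3 TPM in NC against 82.4 and 70.9 TPM in sh-ANP32B (1.03, adjusted p = 0.0359). FADS3, a relative of FADS1 and FADS2 in the same gene cluster, was 27.3 and 21.6 TPM in NC against 43.9 and 47.2 TPM in sh-ANP32B (0.88, adjusted p = 0.0482). Of 19 genes of LXR signalling and of sterol transport or storage, 1 rose, and the median was 0.29. In this list 8 of the 19 had an unadjusted p under 0.05, against 23.8% of all genes. The gene that rose was ABCA7, a lipid transporter, at 35.9 and 34.3 TPM in NC against 71.0 and 93.3 TPM in sh-ANP32B (1.19, adjusted p = 0.0348). LIPA, the lysosomal lipase, was next in that list (0.65, adjusted p = 0.128). In fatty acid oxidation 0 of 15 genes were called, 3 had an unadjusted p under 0.05 and the median was 0.20, with PPARD at 0.57 (adjusted p = 0.131) and ACADVL at 0.52 (adjusted p = 0.14) the largest.

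**Figure D4:**
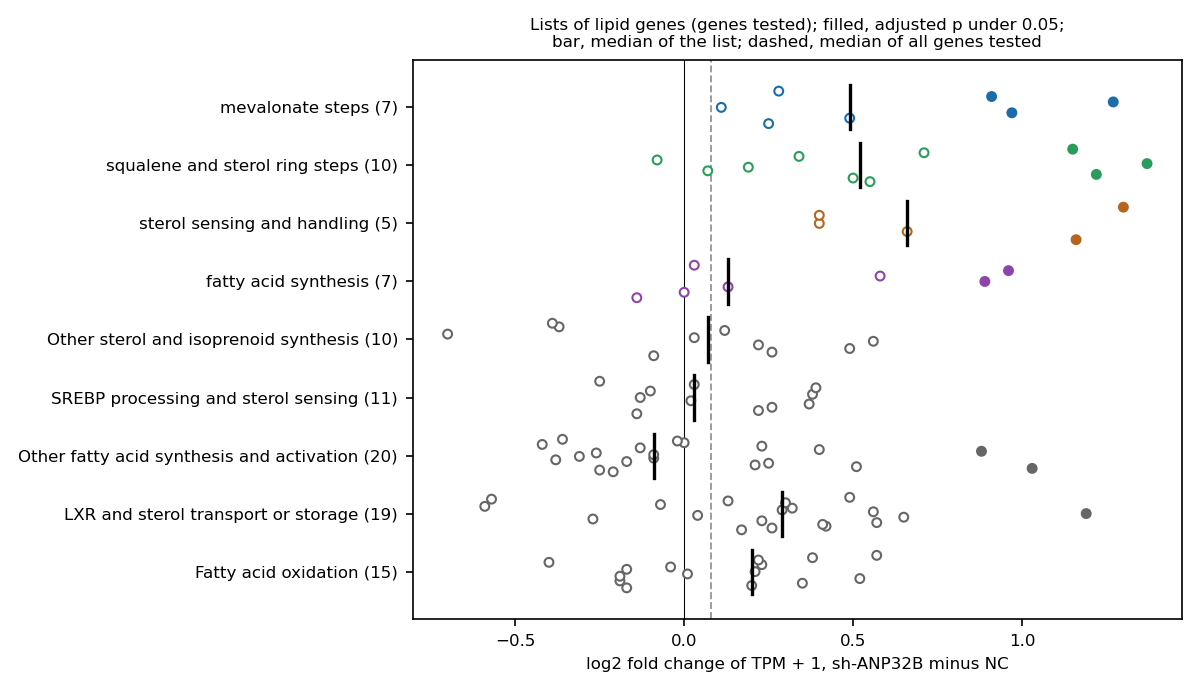
Log2 fold change of TPM + 1, sh-ANP32B minus NC, for the genes of the 4 roles (coloured) and of 5 other lists of lipid genes (grey), where filled points have an adjusted p under 0.05, bars are list medians and the dashed line is the median of all genes tested. The list medians are 0.49, 0.52, 0.66 and 0.13 for the 4 roles and lie between -0.09 and 0.29 for the other 5 lists.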

How the data were processed

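RNA-seq libraries of Kasumi-1 cells (2 NC and 2 sh-ANP32B samples) were analysed from 1 table of gene values. The authors aligned the reads to hg38 with HISAT2 2.0.5, and deposited values that were taken to be TPM because they hold decimals and sum to nearly the same total in each sample. The program, annotation and strand setting that gave the TPM values are not given in the sources used here. Sequencing depth was therefore unknown, and no counting interval was computed. The number of sample columns left unused was 0, and no value above 0 was identical between replicates.

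Gene IDs were matched to GENCODE v44 (16986 matched, 1581 not). Genes that reached 1 TPM in 2 or more samples were kept, and log2(TPM + 1) of the groups was compared with limma 3.58.1 with an abundance trend (R 4.3.3), two-sided, with Benjamini-Hochberg adjustment over 16817 genes. The scale understates changes of low genes. With 2 samples a group, the smallest p of an exact permutation test is 0.333, so none was run. The script was tested on simulated data. Every listed gene that was kept is named, and genes of the other lists are named where called or among the largest 2 absolute fold changes of their list. The genes and lists were chosen with earlier results of these data known, and the list does not hold every gene of these pathways. Other filters, pseudocounts, scalings, a GC correction (loess span 0.3), a replicate block and leaving out each sample were tried. Promoter sequences are those of RefSeq.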

Additional observations from a re-analysis of the deposited data

How the results depend on the processing

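The main count was 10 genes called higher, with the share of the table called higher given in brackets here (2.14%). It was 9 with a pseudocount of 0.1 TPM (1.83%), with median-of-ratios scaling (1.4%), with upper-quartile scaling (1.43%) and with mitochondrial genes left out (1.79%). It was 10 with no filter (1.81%), 12 with at least 1 TPM in all 4 samples (3.55%) and 15 with the GC correction (7.53%). The cut-offs of the study on the limma values gave 14 (12.1%). Without the abundance trend limma gave 0 (0%). Leaving out 1 sample gave 6 to 20, with 6 without either NC replicate, 20 without sh-ANP32B replicate 1 and 17 without sh-ANP32B replicate 2. In the last 2 settings the lone sh-ANP32B sample was assumed to vary like the NC pair. No gene was called lower in any setting. The median log2 fold change stayed between 0.41 and 0.55.

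Replicate numbers are not stated to pair samples, and deviations of same-numbered samples correlated at r = -0.0925 across genes. With a replicate block 12 genes were called (SC5D and SREBF1 joined), while the whole table had 5.84% called higher and 2.92% lower. With the replicate block and GC correction 15 were called, against 5.15% and 6.55% of the table.

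The direction turned only in 7 genes that were not called on all 4 samples, and of these PMVK and FASN were called higher without sh-ANP32B replicate 1. With the GC correction, with and without the block, PMVK was -0.09, TM7SF2 -0.07 and FASN -0.14. CYP51A1 was -0.01 and ELOVL5 -0.06 under median-of-ratios scaling, and ELOVL5 was -0.03 under upper-quartile scaling and -0.02 without mitochondrial genes. Leaving out 1 sample, log2 fold changes ran from -0.35 to 0.58 for PMVK, -0.04 to 0.19 for CYP51A1, -0.14 to 0.51 for TM7SF2, -0.40 to 0.23 for NSDHL, -0.14 to 0.13 for ACACA, -0.06 to 0.32 for FASN and -0.01 to 0.07 for ELOVL5. The cause was not tested. Count-based tests were not run, as the values are not counts.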
